A study of Mus musculus with 12 samples.

Results

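Transcripts of the retinoblastoma pocket proteins and of the DREAM complex were followed in keratinocytes of mouse skin that had been parted by the surface glycoprotein CD34, which marks stem cells of the hair follicle bulge. The genes were 10 in number, namely Rb1, Rbl1, Rbl2, Lin9, Lin37, Lin52, Lin54, Mybl2, Tfdp1 and Tfdp2. Every probe set that the platform annotation ties to exactly 1 of them was taken, whatever its values, which gave 22 of the 45037 probe sets of the array, or 22 of the 34945 that are tied to 1 gene. A probe set is a group of short probes against the same transcript, and 8 of the 10 genes have more than 1. The mice are labelled C57 DBA, with no age, genotype change or treatment given. Both groups came from the same procedure, magnetic sorting (MACS) of skin cells, and differ in whether they carried CD34 (the CD34+ group) or not (the CD34- group). Skin of 6 or more mice was pooled for each of 3 isolations, per the labels, and RNA of either fraction was hybridised to 2 Affymetrix mouse arrays, which gives 6 arrays per group. The titles number the arrays 1 to 6 and do not say which 2 share an RNA. An n of 6 here means 6 arrays from only 3 RNA samples, and all p-values here are too small wherever arrays of the same RNA are alike.

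Pocket proteins are repressors that hold E2F transcription factors in check. Rb1 encodes pRB, Rbl1 encodes p107 and Rbl2 encodes p130. E2F factors bind DNA as dimers with a DP protein, encoded by Tfdp1 or Tfdp2. In resting cells p130, and to a lesser degree p107, joins E2F4 or E2F5, a DP protein and the MuvB core to form DREAM, which keeps cell cycle genes silent. The MuvB core consists of LIN9, LIN37, LIN52, LIN54 and the histone-binding protein RBBP4. LIN54 contacts DNA at an element called CHR, and LIN52 is the subunit that pocket proteins grip. When cells enter the cycle the pocket protein leaves and B-MYB, encoded by Mybl2, joins MuvB to help switch on genes of G2 phase and mitosis. The bulge is known as a compartment of slow-cycling cells, and the title of the study names RB-dependent control of quiescence in epidermal stem cells as its interest.

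The values are log2 expression values made with RMA, and the Trpn control probe sets, which mark the low end of the scale, read 2.31 to 2.95. The sort marker Cd34 read 10.15 in CD34+ and 3.23 in CD34- arrays (means, n = 6), and all 10 bulge markers looked up were higher in the CD34+ group. The values of all probe sets lay closer together on CD34+ arrays 1, 3 and 5 (standard deviation 1.92 to 2.07) than on the other 9 arrays (2.19 to 2.32). Values that rest on these 3 arrays are given with and without them. The distance of the Actb 3' control from its 5' control, which widens as RNA gets shorter, was 3.95 to 5.65 on the log2 scale in CD34+ and 1.82 to 3.24 in CD34- arrays, and its part in the results was not tested. Markers of other cells differed as well. All 9 measured T cell markers were lower in CD34+ arrays, with Ptprc at -2.80 and Thy1 at -1.90 (log2 fold changes), and their summed level was 8.69 to 9.89 against 10.77 to 11.69 (log2 of the sum). Langerhans and myeloid markers had 6 of 10 lower, with Epcam at -0.95 and H2-Aa, which did not pass, at -0.58 (10.05 to 10.70 against 11.02 to 11.58), basal keratinocyte markers 6 of 8 lower, with Krt5 at -1.04 and Krt15, which did not pass, at -0.29 (14.41 to 15.04 against 15.02 to 15.57). Of 10 markers of dermal fibroblasts 5 were higher, among them Col1a2 (3.15), Col5a2 (3.02) and Dcn (2.21), chosen after their values were seen. The lower marker was Thy1, which also counts as a T cell marker, and Vim (0.68) and Mmp2 (-0.20) did not pass (10.43 to 12.33 against 10.21 to 11.03). Of 8 endothelial markers 1 was higher (7.19 to 7.53 against 6.96 to 7.14), with Tek and Emcn at or below the Trpn range in both groups and with Eng (0.24) and Kdr (0.11) not passing. Of 8 melanocyte markers 2 were higher, Mitf (3.13) and Sox10 (0.49), and 1 was lower, Tyrp1 (-0.67), while Dct (-0.36) did not pass. Their summed level was 10.03 to 11.04 against 8.52 to 8.88. This sum largely follows Mitf, which alone read 10.15 in CD34+ and 7.01 in CD34- arrays (means).

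Of the 22 probe sets, 10 passed the test between the groups, 8 of them lower and 2 higher in CD34+ cells. The test was limma over all probe sets, with a Benjamini-Hochberg adjusted p under 0.05. The same test called 21.5% of all 45037 probe sets, 13.9% as lower and 7.64% as higher, and 45.5% of the 22. Among the 37233 probe sets whose mean lay above the Trpn controls, where 21 of the 22 belong, 25.4% were called. The lower calls belonged to Rbl1, Rbl2, Tfdp1, Tfdp2, Lin54 and Lin9, and both higher calls to Lin52. No probe set of Rb1, Lin37 or Mybl2 passed. The arrays of both groups did not overlap for 7 of the 22 probe sets, against 10.9% of all probe sets. The median log2 fold change, CD34+ minus CD34-, was -0.11 over the 22 and 0.06 over all probe sets. In such bulk RNA, fewer cells of a type and less RNA per cell cannot be told apart. Without CD34+ arrays 1, 3 and 5, 7 of the 22 passed, 6 lower and 1 higher, where 15.6% of all probe sets did.

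**Figure D1:**
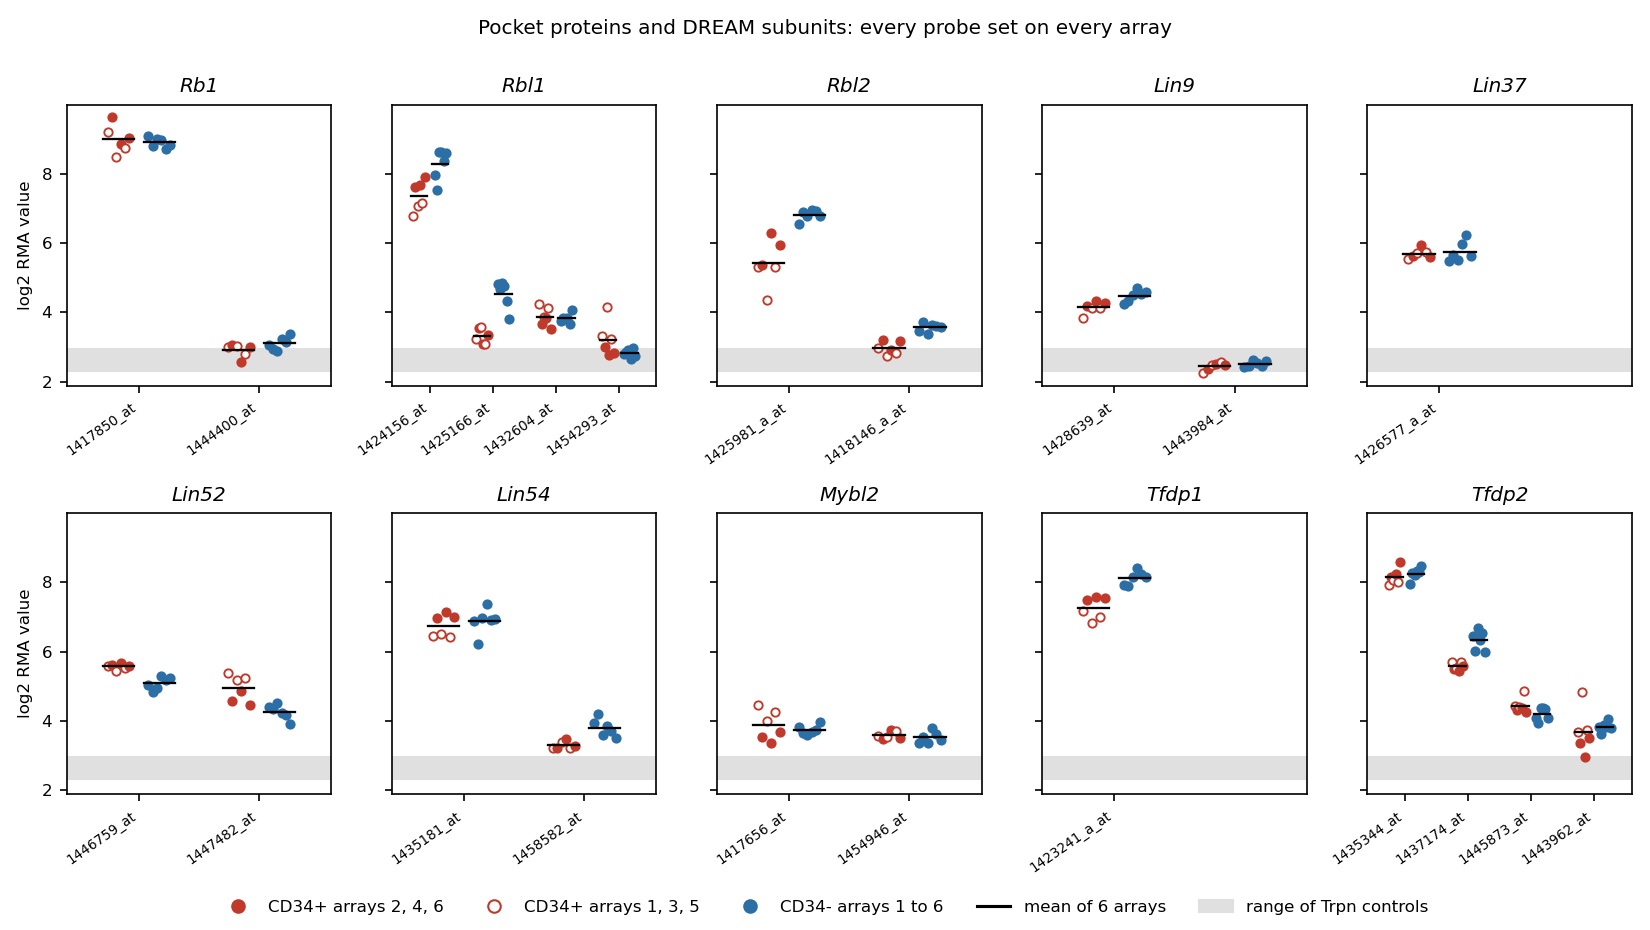
Log2 RMA values (vertical axis) of each of the 22 probe sets (horizontal axis, 1 panel per gene) on each array. Red points are CD34+ arrays, open where they are arrays 1, 3 or 5, blue points are CD34- arrays, black lines are means of 6 arrays, and the grey band is the range of the Trpn controls, 2.31 to 2.95. The groups separate for 1 probe set of Rbl1, both of Rbl2, that of Tfdp1, 1 of Tfdp2, 1 of Lin52 and 1 of Lin54.

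The start regions of the genes were searched for the words through which E2F and DREAM are known to reach their targets. RefSeq windows (GRCm38.p6, 250 bases before to 50 after a gene's start) were available for 8 of the 10 genes, 11 windows in all. The E2F words were TTTCCCGC, TTTCGCGC, TTTGCCGC and TTTGGCGC, and the CHR word was TTTGAA, each on either strand. An E2F word stood in the windows of Rbl1, Tfdp1 and Lin52, and in 2.26% of all 32851 windows. The word TTTCGCGC, held by Rbl1 and by both windows of Tfdp1, occurred in 0.323% of all windows. No window of the 11 held both an E2F word and the CHR word. A stretch of 100 bases around the word is shown for each of these 3 genes because 2 of the genes were lower and the third was higher in CD34+ cells, with the matched word in capitals:
Rbl1, chr2:157204535-157204634, minus strand: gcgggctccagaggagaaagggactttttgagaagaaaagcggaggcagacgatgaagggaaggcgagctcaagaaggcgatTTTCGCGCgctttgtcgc
Tfdp1, chr8:13338625-13338724, plus strand, where the word lies on the opposite strand: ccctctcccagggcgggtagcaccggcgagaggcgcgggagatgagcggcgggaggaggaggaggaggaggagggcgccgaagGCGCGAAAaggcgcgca
Lin52, chr12:84451408-84451507, plus strand: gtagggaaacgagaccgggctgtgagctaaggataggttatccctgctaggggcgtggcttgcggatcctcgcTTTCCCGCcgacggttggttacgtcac
All 3 stretches end right before the first annotated base of the gene. For Rbl1 and Lin52 this base is also the start on which the window is set. For Tfdp1 the stretch ends 26 bases before the start of the first of its 2 windows. The word thus lay 18 to 11 bases before the start of Rbl1 and 27 to 20 before that of Lin52. For Tfdp1 it lay 43 to 36 bases before the start of 1 window and 96 to 89 before that of the other. The CHR word occurred in 1 window each of Rbl2 and Lin37 and in both windows of Lin54, and in 17.9% of all windows. The windows of Mybl2 and of Tfdp2 held none of these words. Only exact matches were counted, so a window without a word may still hold a variant of it. A match is a description of the letters and not a measured binding site.

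Rb1, the retinoblastoma gene, did not pass by either of its probe sets. By 1417850_at its CD34+ arrays ran from 8.47 over a median of 8.95 to 9.62 and its CD34- arrays from 8.72 over 8.91 to 9.10. The CD34- arrays lay inside the span of the CD34+ arrays. The difference was 0.09 (SE 0.16, 95% interval -0.26 to 0.44, limma adjusted p = 0.714). Its size depended on the scaling. A further quantile normalization of the 12 arrays put it at 0.39 with an adjusted p of 0.0441, and centring each array on its median at -0.015. Without CD34+ arrays 1, 3 and 5 it was 0.27 (adjusted p = 0.313). The other probe set, 1444400_at, read 2.91 ± 0.19 (SD, n = 6) in CD34+ and 3.10 ± 0.19 in CD34- arrays, close to the Trpn controls, and differed by -0.19 (adjusted p = 0.226).

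Rbl1, which encodes p107 and is itself a known E2F target, was lower in CD34+ cells by 2 of its 4 probe sets. On 1424156_at the CD34+ arrays ran from 6.77 over a median of 7.38 to 7.90, and the CD34- arrays from 7.53 over 8.48 to 8.63. The groups overlapped, because CD34- array 2 (7.53) lay within the range of the CD34+ arrays. The level was 1.89-fold lower (log2 fold change -0.92, SE 0.23, limma adjusted p = 0.0120). CD34+ arrays 1, 3 and 5 read 6.77 to 7.14 and arrays 2, 4 and 6 read 7.62 to 7.90, and without the first 3 the difference was -0.54 and did not pass (adjusted p = 0.160). On 1425166_at the CD34+ arrays ran from 3.08 over 3.28 to 3.57 and the CD34- arrays from 3.81 over 4.72 to 4.84. Here no CD34+ array reached a CD34- array, although the CD34+ readings lay just above the Trpn range. That difference was -1.24 (SE 0.17, adjusted p = 0.000267) and -1.22 without arrays 1, 3 and 5 (adjusted p = 0.00410). The remaining probe sets, 1432604_at and 1454293_at, differed by 0.04 (adjusted p = 0.829) and 0.39 (adjusted p = 0.161). On 1454293_at, CD34+ array 3 alone read 4.16 while the other CD34+ arrays ended at 3.31, and without arrays 1, 3 and 5 the difference was 0.04.

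Rbl2, which encodes p130, the pocket protein best known from resting cells, was lower in CD34+ cells by both of its probe sets. On 1425981_a_at the CD34+ arrays ran from 4.37 over a median of 5.34 to 6.30, and the CD34- arrays from 6.55 over 6.83 to 6.96. All 6 CD34+ arrays lay below all 6 CD34- arrays, and the CD34+ arrays were spread more widely (SD 0.66 against 0.15, n = 6). The level was 2.60-fold lower (log2 fold change -1.38, SE 0.25, limma adjusted p = 0.00147). Of the CD34+ arrays, numbers 1, 3 and 5 read 4.37 to 5.32 and numbers 2, 4 and 6 read 5.36 to 6.30, and without the first 3 the difference was -0.95 (adjusted p = 0.00512). The second probe set, 1418146_a_at, read 2.75 to 3.21 in CD34+ and 3.37 to 3.73 in CD34- arrays. It too separated the groups, at -0.59 (SE 0.10, adjusted p = 0.00114), with the CD34+ values at the low end of the scale. Leaving out any single array kept both calls, with adjusted p at most 0.00468 for the first and 0.00394 for the second.

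Whether the pocket proteins changed unequally was tested on differences within an array, which cancel a shift of a whole array but not a change in its spread. For 8 pairs of genes, each represented by the brightest of its probe sets on average, the difference was compared between groups with a two-sided exact permutation test, adjusted over the 8 pairs. The smallest p that 924 regroupings of 12 arrays can give is 0.00216. Rbl2 fell relative to Rb1 (difference -1.47), from -2.09 ± 0.27 (SD, n = 6) in CD34- to -3.56 ± 0.65 in CD34+ arrays, without overlap (adjusted p = 0.00433). Rbl1 fell relative to Rb1 as well, from -0.62 ± 0.45 to -1.63 ± 0.51 (exact permutation, adjusted p = 0.0144), and without CD34+ arrays 1, 3 and 5 that difference was -0.81 (adjusted p = 0.127). Between Rbl2 and Rbl1 the difference was -0.46 and did not pass (exact permutation, adjusted p = 0.121). By the next probe sets, which read low, Rbl2 minus Rb1 was -0.40 (exact permutation, adjusted p = 0.0115) and Rbl2 minus Rbl1 was 0.64 (exact permutation, adjusted p = 0.0317). With means of arrays 1-2, 3-4 and 5-6, 3 against 3, no pair can pass, since the smallest possible p is 0.1.

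**Figure D2:**
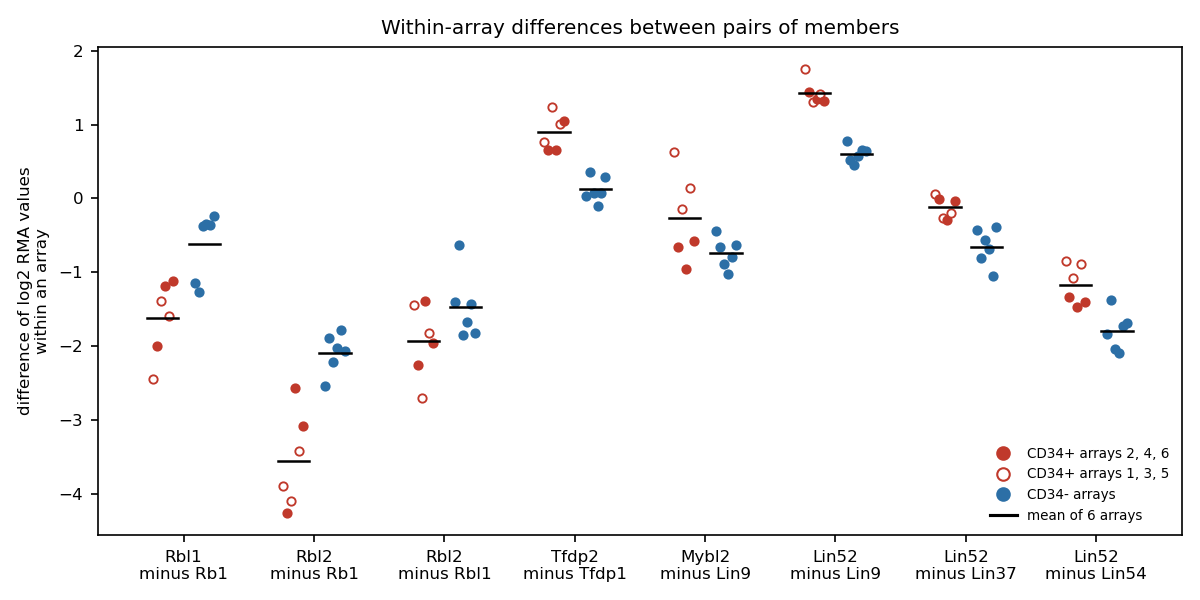
Difference of the log2 RMA values of 2 genes within an array (vertical axis) for 8 pairs (horizontal axis), each gene by the probe set that is brightest on average. Red points are CD34+ arrays (open for arrays 1, 3 and 5), blue points CD34- arrays and black lines means of 6 arrays. The groups stand apart without overlap for Rbl2 minus Rb1, Tfdp2 minus Tfdp1, Lin52 minus Lin9 and Lin52 minus Lin37.

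Of the 2 DP partners of E2F, Tfdp1 was lower and Tfdp2 was lower by 1 of its 4 probe sets. Tfdp1, which encodes DP1, was 1.82-fold lower in CD34+ cells by its only probe set, 1423241_a_at. Its CD34+ arrays ran from 6.83 over a median of 7.32 to 7.58, and its CD34- arrays from 7.90 over 8.16 to 8.41. The groups did not overlap. On the log2 scale the fall came to -0.86 (SE 0.15, adjusted p = 0.00100 by limma), and -0.59 without CD34+ arrays 1, 3 and 5 (adjusted p = 0.00754). For Tfdp2, which encodes the second DP protein, the probe set with the highest mean, 1435344_at, ran from 7.92 over 8.11 to 8.59 in CD34+ and from 7.94 over 8.28 to 8.46 in CD34- arrays. These ranges were almost the same, and the difference was -0.08 (95% interval -0.34 to 0.17, adjusted p = 0.623), or 0.22 after a further quantile normalization. Within arrays Tfdp2 rose relative to Tfdp1 by 0.78 (exact permutation, adjusted p = 0.00433), in all 6 CD34+ arrays above all 6 CD34- arrays.

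Another probe set of Tfdp2, 1437174_at, did fall. It read 5.45 to 5.70 in CD34+ and 6.00 to 6.70 in CD34- arrays, with no overlap and a tight CD34+ group. The log2 fold change of this probe set was -0.77 with an SE of 0.12 (adjusted p = 0.000661 by limma), and by this probe set Tfdp2 and Tfdp1 differed by 0.09 within arrays, which did not pass (exact permutation, adjusted p = 0.647). Where in the transcript each probe set lies was not looked up here. The last 2, 1445873_at and 1443962_at, were at 0.25 (adjusted p = 0.150) and -0.15 (adjusted p = 0.649). On 1443962_at the CD34+ arrays spread from 2.95 to 4.83 with array 3 at the top, and without CD34+ arrays 1, 3 and 5 this probe set was lower in CD34+ cells (-0.56, adjusted p = 0.0165).

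Of the MuvB core, Lin52 was higher in CD34+ cells by both of its probe sets. LIN52 docks the pocket protein in DREAM after phosphorylation by the kinase DYRK1A. On 1446759_at the CD34+ arrays ran from 5.44 over a median of 5.58 to 5.66 and the CD34- arrays from 4.85 over 5.11 to 5.29. The CD34+ arrays lay close together and above every CD34- array. This was a 1.40-fold rise (log2 fold change 0.48, SE 0.09, limma adjusted p = 0.00229), and it was 0.53 without CD34+ arrays 1, 3 and 5 (adjusted p = 0.00911). On 1447482_at the CD34+ arrays ran from 4.47 over 5.03 to 5.38 and the CD34- arrays from 3.90 over 4.29 to 4.52. The CD34+ group here fell into 2 parts, arrays 1, 3 and 5 at 5.20 to 5.38 and arrays 2, 4 and 6 at 4.47 to 4.87. The difference of 0.69 (adjusted p = 0.00914) became 0.37 once the former were left out, and then missed the threshold (adjusted p = 0.107). A further probe set, 1434161_at, is tied to Lin52 and to the pseudogene Gm7020 together and so lies outside the rule. It went the other way, at 6.86 ± 0.55 (SD, n = 6) in CD34+ and 7.30 ± 0.13 in CD34- arrays, a difference of -0.43 that did not pass (adjusted p = 0.151).

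Of the other MuvB genes among the 10, Lin9 and Lin54 were each lower by 1 of their 2 probe sets and Lin37 did not pass. For Lin9, a scaffold subunit, 1428639_at ran from 3.84 to 4.32 in CD34+ and from 4.25 to 4.71 in CD34- arrays, and was lower by 0.34 in log2 units (log2 fold change -0.34, SE 0.10, adjusted p = 0.0323). That call was lost when any of 6 arrays was left out alone, namely CD34+ arrays 1 and 5 and CD34- arrays 3, 4, 5 and 6 (-0.28 to -0.34, highest adjusted p 0.0778). It was also lost without CD34+ arrays 1, 3 and 5 (-0.23, adjusted p = 0.204) and, at the same -0.34, with arrays 1-2, 3-4 and 5-6 averaged (adjusted p = 0.0730). Its other probe set read 2.25 to 2.61 over the 12 arrays, within or below the Trpn range. For Lin37, 1426577_a_at ran from 5.53 to 5.95 in CD34+ and from 5.47 to 6.23 in CD34- arrays and differed by -0.05 (95% interval -0.33 to 0.24, adjusted p = 0.803). For Lin54, the subunit that binds the CHR element, 1435181_at ran from 6.43 to 7.14 in CD34+ and from 6.23 to 7.38 in CD34- arrays, at -0.14 (adjusted p = 0.592) and 0.14 without CD34+ arrays 1, 3 and 5. Its dimmer probe set, 1458582_at, separated the groups, with 3.21 to 3.49 in CD34+ and 3.51 to 4.19 in CD34- arrays. That difference was -0.50 (SE 0.12, adjusted p = 0.00751), and -0.47 with an adjusted p of 0.0544 without the 3 arrays.

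Within arrays Lin52 rose relative to each of the 3 MuvB genes it was paired with. Rbbp4 was not among them. The rise was 0.82 against Lin9 and 0.53 against Lin37 (exact permutation, adjusted p = 0.00433 for each). Against Lin54 the rise was 0.62 (exact permutation, adjusted p = 0.0104). The first 2 pairs showed no overlap between groups. The third missed the threshold without CD34+ arrays 1, 3 and 5 (0.39, exact permutation, adjusted p = 0.114). All 3 rest on the Lin52 probe set 1446759_at or, with the next highest probe sets, on 1447482_at, and not on the probe set shared with the pseudogene.

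Mybl2, which encodes B-MYB and is known as an E2F target that is high in dividing cells, did not pass by either probe set. Both probe sets read low, with group means of 3.53 to 3.88 beside Trpn controls of up to 2.95. This limits how far a fall could show. On 1417656_at the CD34+ arrays ran from 3.37 over a median of 3.84 to 4.46 and the CD34- arrays from 3.60 over 3.72 to 3.97. CD34+ arrays 1, 3 and 5 (4.00 to 4.46) were the highest of all 12, and CD34+ arrays 2 and 4 (3.52 and 3.37) were the lowest. The difference was 0.13 (95% interval -0.23 to 0.50, limma adjusted p = 0.579) and -0.22 without the former 3 arrays (adjusted p = 0.199). On 1454946_at the CD34+ arrays read 3.47 to 3.75 and the CD34- arrays 3.36 to 3.79, a difference of 0.07 (adjusted p = 0.619). Relative to Lin9, Mybl2 differed by 0.48 within arrays and did not pass (exact permutation, adjusted p = 0.106). Without CD34+ array 4 it passed, at 0.61 (exact permutation, adjusted p = 0.0247), and without CD34+ arrays 1, 3 and 5 it was 0.0086 (adjusted p = 0.976).

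**Figure D3:**
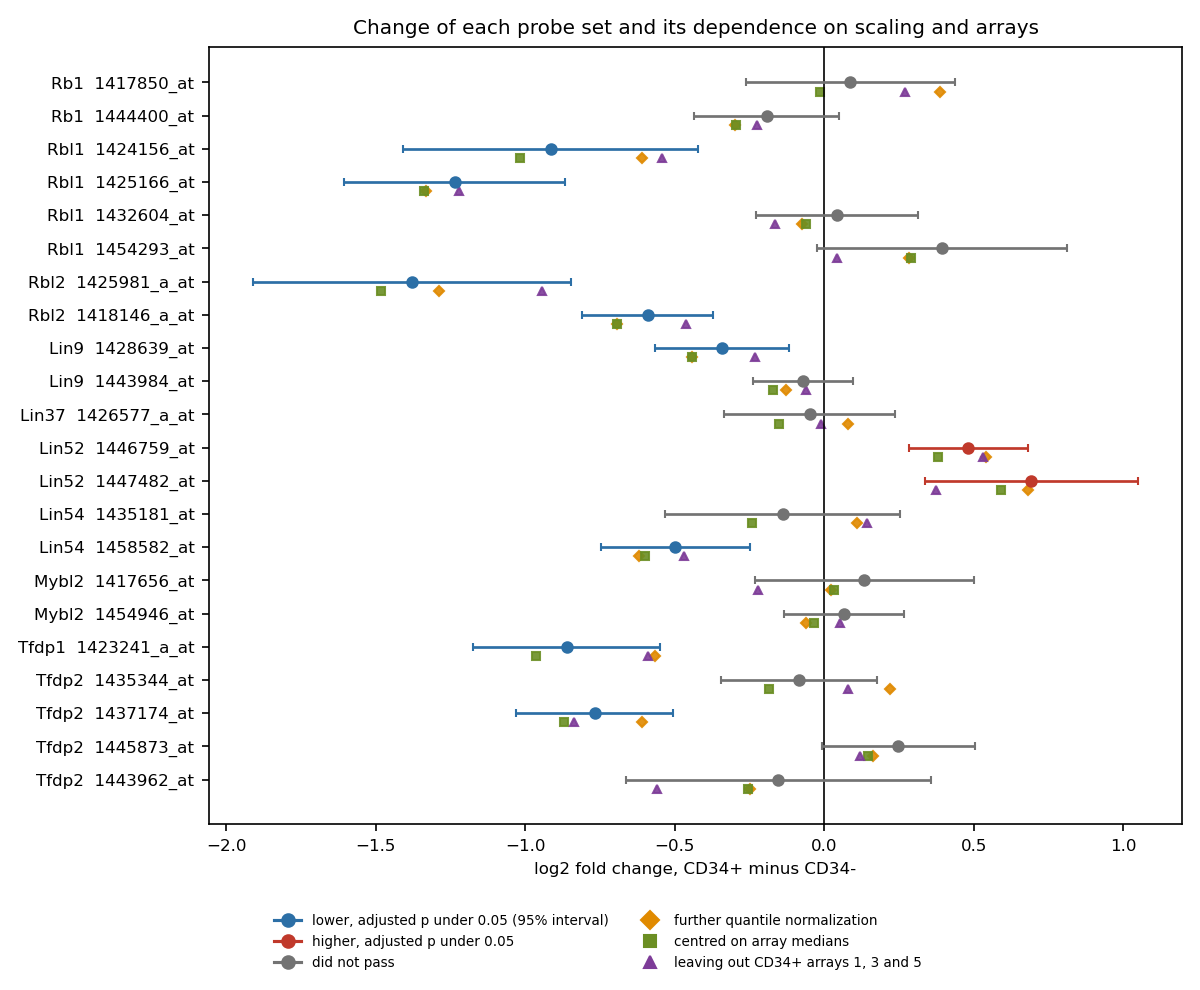
Log2 fold change, CD34+ minus CD34-, of each of the 22 probe sets (horizontal axis) with the 95% interval of the limma fit. Blue marks probe sets lower and red those higher at an adjusted p under 0.05, grey those that did not pass, and small symbols give the value after a further quantile normalization, after centring on array medians, or without CD34+ arrays 1, 3 and 5. Rbl2 1425981_a_at lies farthest to the left at -1.38, and Rb1 1417850_at moves between -0.015 and 0.39.

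Probe sets of 1 gene did not always change by the same amount. In a comparison chosen after the values were seen, the difference between the 2 probe sets with the highest means was set against the group for the 8 genes that have them. It passed for 3 genes, Rbl2 (-0.79), Lin9 (-0.27) and Tfdp2 (0.68), with adjusted p of 0.0346, 0.0173 and 0.0346 in exact permutation tests over the 8 genes. Without CD34+ arrays 1, 3 and 5 these differences were -0.48, -0.17 and 0.92, and none passed with the fewer arrays (lowest adjusted p 0.133). Both Rbl2 probe sets fell (-1.38 and -0.59), and the dimmer one read partly within the Trpn range in CD34+ arrays. The dimmer Lin9 probe set read within or below that range, where a change can hardly show. The split within the CD34+ group was common. Arrays 1, 3 and 5 did not overlap arrays 2, 4 and 6 for 12 of the 22 probe sets (54.5%), and for 40.2% of all probe sets.

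Among genes that work with the pocket proteins and MuvB, lower calls outnumbered higher calls. Of 36 such genes, each by the probe set that is brightest on average, 18 were lower, 1 was higher and 17 did not pass, with a median log2 fold change of -0.48, where 25.2% of all 18193 genes were called (17.5% lower, 7.73% higher) and the median was 0.04. Of those that passed, the falls were largest for Ccne2 (-1.76), a cyclin that drives entry into S phase, the transcription factor Myb (-1.20), cyclin D2, Ccnd2 (-1.19), and the kinase Cdk2 (-1.17). Cyclins of the D and E type and their kinases are known to inactivate pocket proteins by phosphorylation. Dyrk1a, whose kinase promotes DREAM assembly, was lower as well (-1.11, SE 0.26, limma adjusted p = 0.00856). Neither Ccnd2 (-0.81, adjusted p = 0.0700) nor Dyrk1a (-0.58, adjusted p = 0.0984) passed without CD34+ arrays 1, 3 and 5, where 10 of the 36 were lower and 1 higher. After a further quantile normalization the median of the list was -0.29, with 13 genes lower. The higher gene, named after its value was seen, was Cdkn1c (0.54, adjusted p = 0.0245), an inhibitor of cyclin-dependent kinases. It lost its call after a further quantile normalization (0.43, adjusted p = 0.0889), after median centring (0.44, adjusted p = 0.0906), with arrays 1-2, 3-4 and 5-6 averaged (0.54, adjusted p = 0.0540), and without any of CD34+ array 1 and CD34- arrays 5 and 6 (0.49 to 0.53). It passed without CD34+ arrays 1, 3 and 5, at 0.70 (adjusted p = 0.0140).

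The E2F factors that sit in DREAM did not pass. E2f4 was at 0.16 (limma adjusted p = 0.320), with low means of 4.37 in CD34+ and 4.21 in CD34- arrays. E2f5 was at 0.22 (limma adjusted p = 0.793) and spread widely in both groups (SD 1.27 in CD34+ and 0.95 in CD34- arrays, n = 6 each). Of E2f1 to E2f8, 2 were lower, E2f7 (-1.05, adjusted p = 0.00735) and E2f8 (-0.46, adjusted p = 0.0236), named after their values were seen. The E2f8 call was lost after a further quantile normalization (-0.30, adjusted p = 0.167), without CD34- array 3 (-0.40) or 4 (-0.41), and with arrays 1-2, 3-4 and 5-6 averaged (adjusted p = 0.0878), and that averaging also ended the E2f7 call (adjusted p = 0.0520). Rbbp4, the histone-binding MuvB subunit, was at -0.01 by the probe set used (adjusted p = 0.973), while 2 of its 3 other probe sets passed as lower, the lowest at -1.31. Mybl1, a relative of Mybl2, was lower (-0.39, adjusted p = 0.0187), and stayed at -0.39 with fewer arrays once CD34+ arrays 1, 3 and 5 were left out, where it did not pass (adjusted p = 0.0756). Foxm1, the factor that follows B-MYB on mitotic genes, was at -0.20 (adjusted p = 0.157). It passed after median centring (-0.31, adjusted p = 0.0290), and 1 of its 3 other probe sets passed as lower (-0.61).

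The known targets of these regulators that passed were lower in CD34+ cells. Of 43 measured targets of DREAM, B-MYB and FOXM1 that act in G2 phase and mitosis, 41 were lower and the other 2 did not pass, with a median log2 fold change of -1.30, where 17.5% of all genes were lower. The largest falls were those of Nusap1 (-2.07), a spindle protein, Ect2 (-1.78), which steers cytokinesis, the topoisomerase Top2a (-1.74) and Ube2c (-1.70), a ubiquitin-conjugating enzyme of mitotic exit. Of 33 measured E2F and DREAM targets of the G1/S transition, 21 were lower and the other 12 did not pass, with a median of -0.84. Here Pcna (-1.84), the polymerase clamp, Tk1 (-1.81), thymidine kinase, the uracil glycosylase Ung (-1.64) and Brca1 (-1.62) fell most. Without CD34+ arrays 1, 3 and 5, 35 of the mitotic and 17 of the G1/S genes were lower, where 9.89% of all genes were. Of the 17 genes of the 3 lists that are named here and passed, 9 have other probe sets. In 3 of these, Myb, Ccnd2 and Dyrk1a, another probe set passed the same way. No other probe set passed for Nusap1 (-0.05), Top2a (-0.11 to 0.30), Brca1 (-0.17 to 0.22), Cdk2 (-0.01), Mybl1 (0.06) or E2f8 (-0.04). The T cell, Langerhans and basal keratinocyte markers were lower in the same arrays (summed levels above), and their part in these counts was not tested.

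The letters in the start regions of these targets differed between the lists. The CHR word stood in a window of 28 of 39 mitotic targets with a window (71.8%), in 4 of 30 G1/S targets (13.3%) and in 20.2% of all 27025 genes with a window. An E2F word stood in 13 of 30 G1/S targets (43.3%), in 1 of 39 mitotic targets (2.56%) and in 2.60% of all genes. These lists were drawn up as targets, so the shares describe the lists and are not independent of what is known of them.

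**Figure D4:**
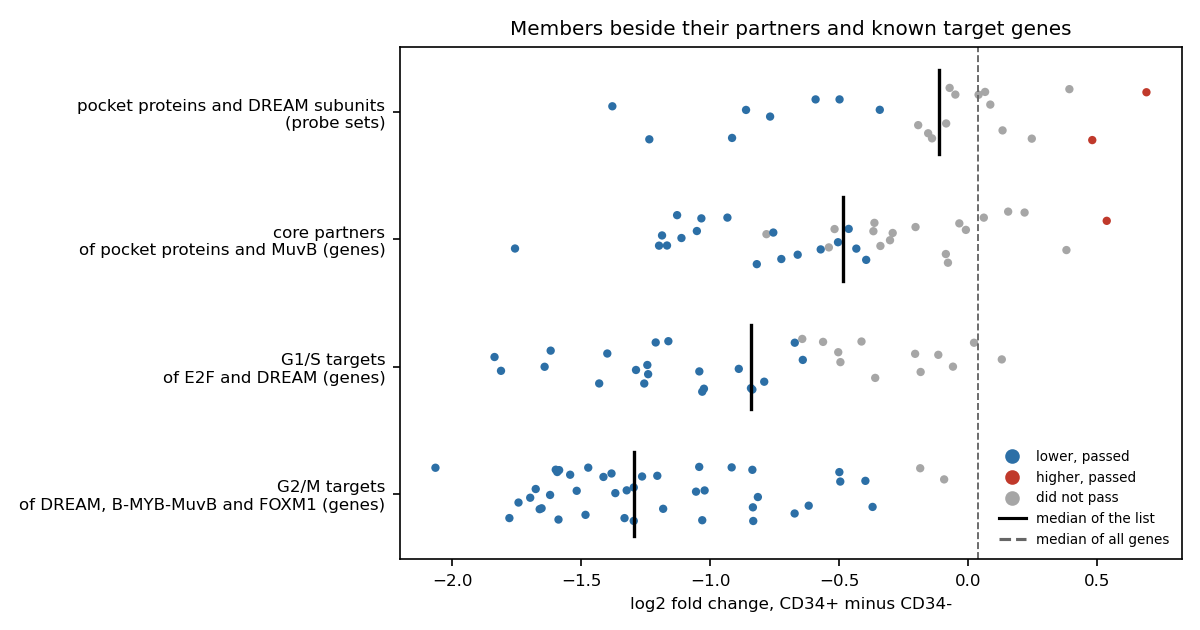
Log2 fold change, CD34+ minus CD34- (horizontal axis), of the 22 probe sets of the pocket proteins and DREAM subunits and of 3 lists of genes (rows). Each point is a probe set or a gene, blue where lower, red where higher and grey where it did not pass, black bars are medians and the dashed line is the median of all genes, 0.04. The median moves from -0.11 for the 22 probe sets over -0.48 and -0.84 to -1.30 for the mitotic targets.

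Genes whose values followed a pocket protein or Mybl2 most closely over the 12 arrays were sought among 34923 probe sets tied to 1 other gene. These correlations describe likeness over arrays that share RNA, fraction and scaling. For Rb1 they were Ssb (r = 0.97), Enox2 (0.96) and Bhlhb9 (0.94), each with a log2 fold change between -0.03 and 0.08. For Rbl1 they were Rab30 (r = 0.98, log2 fold change -1.16), Mylip (0.96, -0.96) and Ncapg2 (0.96, -0.99). For Rbl2 they were Irf5 (r = 0.99, log2 fold change -1.02), Ctsh (0.99, -1.38) and Itga6 (0.98, -1.64). Itga6 is also 1 of the lower basal keratinocyte markers, where its brightest probe set was at -0.82. For Mybl2 they were Trpm2 (r = 0.94), Hspb3 (0.93) and 4933405L10Rik (0.92), all with low readings of 4.05 to 4.49 in the group means, and without CD34+ arrays 1, 3 and 5 the r with Trpm2 was 0.72.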

How the data were processed

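Values came from 1 deposited table with a log2 value per probe set and array, which the authors computed by RMA according to the submitters' processing notes. The RMA version, and whether all 12 arrays were normalized together, are not given in the sources used here. Of 45101 probe sets, 64 controls were set aside. Of the rest, GEO's platform annotation ties 34945 to 1 gene and 932 to more genes, while 9160 have no name here.

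The comparison of groups used limma (version 3.58.1, R 4.3.3; lmFit and eBayes, two-sided) over all 45037 probe sets, without a block or a filter, with Benjamini-Hochberg adjustment over all of them. The fit was first tested on simulated data in which all arrays were independent, so that test does not cover arrays that share RNA. Genes of the lists, and all genes beside them, are represented by the probe set with the highest mean and keep the adjusted p of that fit. Errors are standard deviations over 6 arrays or limma's standard errors, and the number of arrays limits the precision. Within-array differences were compared with exact permutation tests. The alternatives were other scalings, a replicate block, array means, a filter on dim probe sets, a fit per gene and leaving out arrays. The labels do not say which CD34+ and CD34- arrays come from the same isolation, so the arrays were not paired.

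Every probe set of the 10 genes is named. Of each list, up to 4 genes that passed are named by size of change, along with E2f4, E2f5, Rbbp4, Dyrk1a, Foxm1 and Mybl1, the 3 genes most like each of Rb1, Rbl1, Rbl2 and Mybl2, Cd34 and the 2 markers with the highest means of each other cell type. Cdkn1c, E2f7, E2f8, Col1a2, Col5a2, Dcn, Sox10 and Tyrp1 were added after their values were seen. The genes, lists and the exclusion of CD34+ arrays 1, 3 and 5 were chosen with earlier results of these data known. Start regions and gene counts of the windows are from RefSeq, GRCm38.p6.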

Additional observations from a re-analysis of the deposited data

Results flagged for a closer look

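On Tfdp2 probe set 1445873_at, CD34+ array 5 read 4.87, apart from the other CD34+ arrays, which read 4.25 to 4.44. It was the 1 value set apart from its group among the 44 groups of 6 arrays checked for the 22 probe sets, and chance sets apart about 1 group in 20.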

How the results depend on the processing

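The count of member probe sets past the threshold was 10. With each gene entered only by the probe set that is brightest on average, it was 5 (4 lower, 1 higher). That fit tests fewer probe sets, and it called 26.1% of all 18193 genes. On leaving out single arrays the count was 9 to 10 (lower 7 to 8, higher 2), where 16.5% to 27.4% of all probe sets were called. Without CD34+ arrays 1, 3 and 5 the count of higher probe sets was 1 and that of lower partner genes 10. In that fit 15.6% of all probe sets were called, and 9.89% of all genes were lower. The single higher partner gene became 0 after a further quantile normalization, after median centring and with means of arrays 1-2, 3-4 and 5-6, and was 0 to 1 on leaving out single arrays. With the array number as a replicate block 10 member probe sets passed, where 22.7% of all probe sets did, and the block changed no call of a member. Deviations of equal numbers correlated at -0.24 to 0.49, over 0.1 for 4 of 6 numbers, and 6 of 12 arrays correlated best with their own number. These values do not settle whether equal numbers share an isolation. Arrays were not taken as pairs because the labels do not give the isolation. Of 8 within-array differences 6 passed, and 0 could pass with means of arrays, 3 against 3. On leaving out single arrays 6 to 7 passed, and 6 after a further quantile normalization, an alternative chosen after seeing the data. Without CD34+ arrays 1, 3 and 5, where fewer regroupings are possible, 4 passed.

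Signs turned for differences that had not passed. After a further quantile normalization these were Rbl1 1432604_at (-0.076), Lin37 1426577_a_at (0.078), Lin54 1435181_at (0.11), Mybl2 1454946_at (-0.061), Tfdp2 1435344_at (0.22), Rbbp4 (0.17) and the fibroblast marker Mmp2 (0.12). After median centring they were Rb1 1417850_at (-0.015), Rbl1 1432604_at (-0.061) and Mybl2 1454946_at (-0.036). Without CD34+ arrays 1, 3 and 5 they were Rbl1 1432604_at (-0.17), Lin54 1435181_at (0.14), Mybl2 1417656_at (-0.22), Tfdp2 1435344_at (0.079), E2f4 (-0.0095), E2f5 (-0.63), Rbbp4 (0.16), Vim (-1.26), Mmp2 (0.11) and Kdr (-0.081). Leaving out single arrays gave -0.040 to 0.19 for Rb1 1417850_at, -0.034 to 0.11 for Rbl1 1432604_at, -0.10 to 0.049 for Lin37 1426577_a_at, -0.12 to 0.58 for E2f5 and -0.12 to 0.090 for Rbbp4. By the next highest probe sets, which read low, Rbl2 minus Rbl1 was 0.64 (exact permutation, adjusted p = 0.0317). The cause was not tested for any of these. The median over all probe sets moved from 0.06 to 0.02 with the quantile normalization and to -0.04 with the centring, and the share of lower calls from 64.6% to 58.3% and 78.9%.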
